A study of Bos taurus with 9 samples.

Results

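The deposited table of small RNA from extracellular vesicles (EVs) of bovine follicular fluid holds 101889 loci, which are stretches of the genome where sequencing reads piled up. Of these, 5625 loci (5.52%) were 18 to 24 bases long, the length range of mature miRNA, and were not among the 704 loci that the study listed as miRNA. These 5625 unlisted short loci are described here. They were chosen by length (end minus start plus 1) and by absence from the study's 2 lists, which hold 249 loci of known and homologous miRNA and 455 loci of predicted miRNA, and no count was used to choose them.

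EVs were isolated from the fluid of antral follicles of cow ovaries, and follicles of like diameter were pooled on each collection day. Pools came from follicles with diameters of 3–5 mm (small), of 6–9 mm (medium) and over 9 mm (large), with 3 pools per size, and each pool gave 1 library from total RNA isolated with Trizol. No animal was treated, a pool mixes many cows and follicles, and the labels do not say which pools share a collection day. Replicates are named by the numbers in the labels, which are 1, 2 and 4 for small, 5, 6 and 8 for medium and 10, 11 and 12 for large follicles.

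A miRNA is cut from a hairpin precursor. The hairpin has 2 arms joined by a loop, and either arm can give a stable small RNA of about the length selected here. Other RNA, such as fragments of transfer RNA, ribosomal RNA or repeats, can give reads of the same length, so length alone does not identify a miRNA. EVs carry small RNA between the granulosa and theca cells, the oocyte and the fluid of the follicle. All positions are given in the UMD3.1 bovine build used by the study. Base sequences and gene annotation of that build were not used here, so loci are identified by position, strand and length.

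Depth was 8941598 to 14664460 counts per sample over all loci. A count is a read mapped to the effective region of a locus, and counts are not corrected for depth. The lowest share that this depth can show in a sample, 3 counts of its total, was 2.05e-05% to 3.36e-05%, which covers counting error only. In each sample between 4779 (84.96%) and 5307 (94.35%) of the 5625 loci had at least 3 counts. Only 5 loci had 0 counts in all 9 samples, and 12 had a total under 10.

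Most unlisted short loci were low. The median total over the 9 samples was 156 counts, with quartiles of 84 and 230 counts. Their distribution by length was uneven, with 1226 loci of 18 bases, 557 of 19, 400 of 20, 568 of 21, 780 of 22, 928 of 23 and 1166 of 24 bases. The plus strand held 2956 loci and the minus strand 2669. Counts were concentrated on few loci. The highest locus held 12.4% of the summed count of all 5625, the 10 highest held 32.7% and the 100 highest 69.8%. The study kept loci for its miRNA lists only above a mean of 100 reads in a size group, and 514 unlisted short loci (9.14%) passed a mean of 100 counts, beside 11.6% of all loci. Those 514 held 82.1% of the summed count.

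The libraries did not all sit with their size group, which bears on every comparison. The TMM factor, which scales a library to the bulk of loci, was 0.45, 0.62 and 0.41 in the small, 1.46, 1.93 and 0.72 in the medium and 1.68, 1.97 and 1.31 in the large pools. Medium replicate 8 stood apart from the other medium pools. Over the 5625 loci its mean Spearman correlation was 0.674 with the small pools and 0.368 with the other medium pools, a description across loci that share libraries and depth. Large replicate 12 had the highest such value with the small pools among the large pools (0.401).

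Markers of cell types were taken from the listed miRNA and are given as shares of all counts. All known and homologous miRNA loci together held between 14.1 and 26.9% in small and between 1.43 and 5.65% in large replicates. A falling share of a list is therefore not set apart from that fall. In the study's own normalization miR-486 was higher in large than in small follicles, and members of the ovarian list went both ways. The ovarian and gonadal list had 5 of 7 miRNA in the table, most abundantly miR-202, and held 1.07, 0.702 and 1.35% of counts in small, 0.151, 0.154 and 0.476% in medium and 0.0416, 0.0403 and 0.286% in large replicates. The mesenchyme list (5 of 5, led by miR-143) was between 0.0907 and 0.599% in small and between 0.00716 and 0.0543% in large replicates. The epithelium list (4 of 5, led by miR-200b) held 0.0131, 0.00653 and 0.0111% in small, 0.00572, 0.00181 and 0.00493% in medium and 0.000626, 0.000440 and 0.000488% in large replicates, with all large values below all small ones. Of the blood cell list 4 of 7 were found, led by miR-486, while miR-144, miR-142-3p and miR-223 were not among the listed loci. The blood list was highest in large replicate 12 (0.0750%) and between 0.00696 and 0.0327% elsewhere. The part of these cell types in the results that follow was not tested, and fewer vesicles of a source and less RNA per vesicle cannot be told apart in such pools.

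The first question was whether the summed share of these loci changed with follicle size. They took 5.13, 5.68 and 6.36% of all counts in the small, 3.68, 4.34 and 5.72% in the medium and 3.65, 2.52 and 4.84% in the large replicates. The share fell from 5.72% ± 0.618 (SD, n = 3) in small to 4.58% ± 1.05 in medium and 3.67% ± 1.16 in large follicles, and large and small replicates did not overlap. The trend over the 3 sizes had p = 0.0321 in a two-sided exact permutation test, whose smallest possible p is 0.00119. With 3 against 3 no pair can go below p = 0.1 in the exact permutation test, and large and small pools gave 0.1, medium and small 0.3 and large and medium 0.4. Without large replicate 10, large replicate 11, medium replicate 6, small replicate 2 or small replicate 4, the exact permutation p of the trend was 0.0607, 0.0946, 0.0536, 0.0607 and 0.0911.

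The summed share of the 10 highest loci and that of the others differed in course. The 10 highest took 1.24, 1.56 and 1.39% of counts in small, 0.836, 1.38 and 2.48% in medium and 1.15, 0.681 and 2.96% in large replicates, with no trend that passed the test (exact permutation p = 0.771). This sum mixes unlike loci, since 6 of the 10 were each called lower in large follicles and the highest alone reached 2.24% of counts in large replicate 12. The other 5615 loci took 3.88, 4.11 and 4.97% in small, 2.84, 2.96 and 3.24% in medium and 2.51, 1.83 and 1.88% in large replicates. These 3 sets of values do not overlap, and the means were 4.32% ± 0.573, 3.02% ± 0.206 and 2.07% ± 0.376 (SD, n = 3), with an exact permutation p of 0.00119. The 10 left out were chosen by their counts in these same samples. The highest of them had its largest counts in medium replicate 8 and large replicate 12, so this p describes the values and supports no further reading. The direction depends on what the share is taken of. As a share of loci of 18 to 30 bases only, small follicles had a mean of 12.4%, medium of 13.6% and large of 13.8% (exact permutation p = 0.569).

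**Figure D1:**
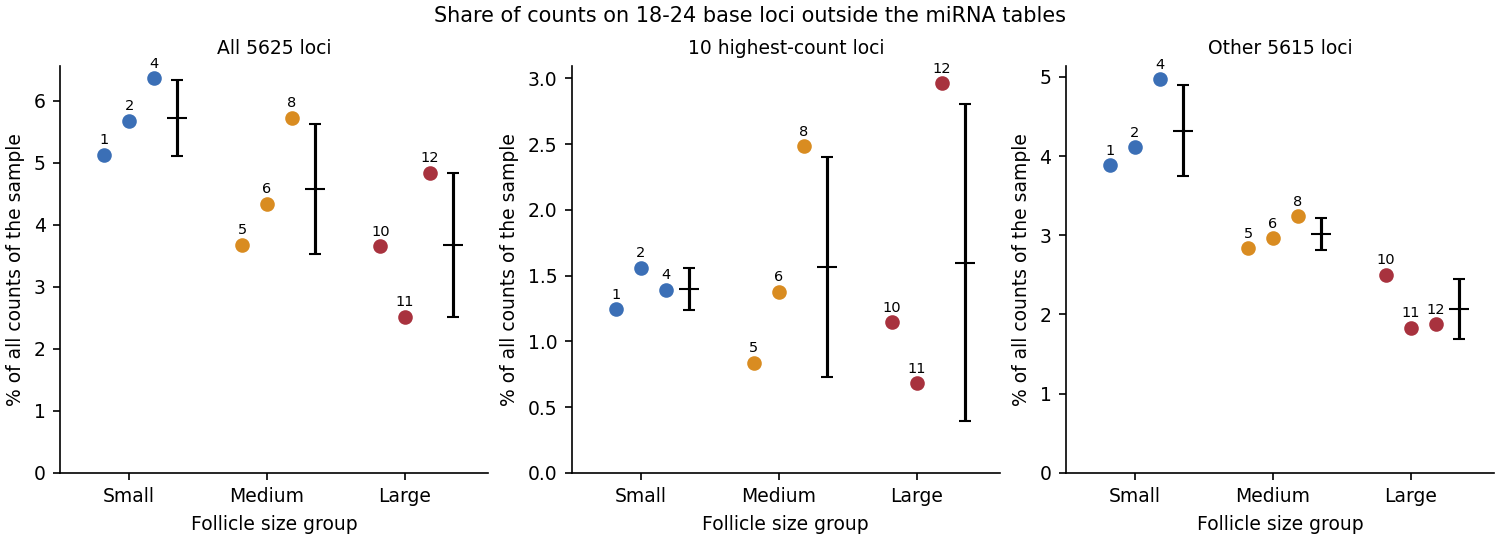
Share of all counts of each sample (y axis, %) on the 5625 unlisted short loci, on the 10 of highest count and on the other 5615, for small, medium and large follicles. Points are replicates with their label numbers, and black bars are the mean ± SD (n = 3). The groups are separate only for the other 5615 loci, while medium replicate 8 (2.48%) and large replicate 12 (2.96%) stand high for the 10 highest.

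By length, the trend passed the test at 21 and 22 bases. Loci of 22 bases took 1.07, 1.26 and 1.91% of counts in small, 0.687, 0.551 and 0.865% in medium and 0.295, 0.210 and 0.303% in large replicates. Loci of 21 bases took 0.504, 0.380 and 0.617% in small, 0.260, 0.237 and 0.272% in medium and 0.178, 0.129 and 0.152% in large replicates. At both lengths every small replicate was above every medium one and every medium one above every large one (exact permutation p = 0.00119, adjusted p = 0.00417 over the 7 lengths). The mean fell from 1.41 to 0.269% at 22 bases and from 0.500 to 0.153% at 21 bases. The other 5 lengths did not pass the test, with adjusted exact permutation p from 0.281 at 19 bases to 0.805 at 18 bases. Loci of 24 bases were the largest class, with 41.7% of the summed count. They took 2.20, 2.69 and 2.31% in small, 1.20, 1.17 and 3.01% in medium and 1.12, 0.764 and 3.00% in large replicates, so that the high values of medium replicate 8 and large replicate 12 are in this class. Their mean was 2.40% ± 0.255 in small and 1.63% ± 1.20 in large follicles (SD, n = 3), a larger difference than at 21 bases but with groups that overlap.

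**Figure D2:**
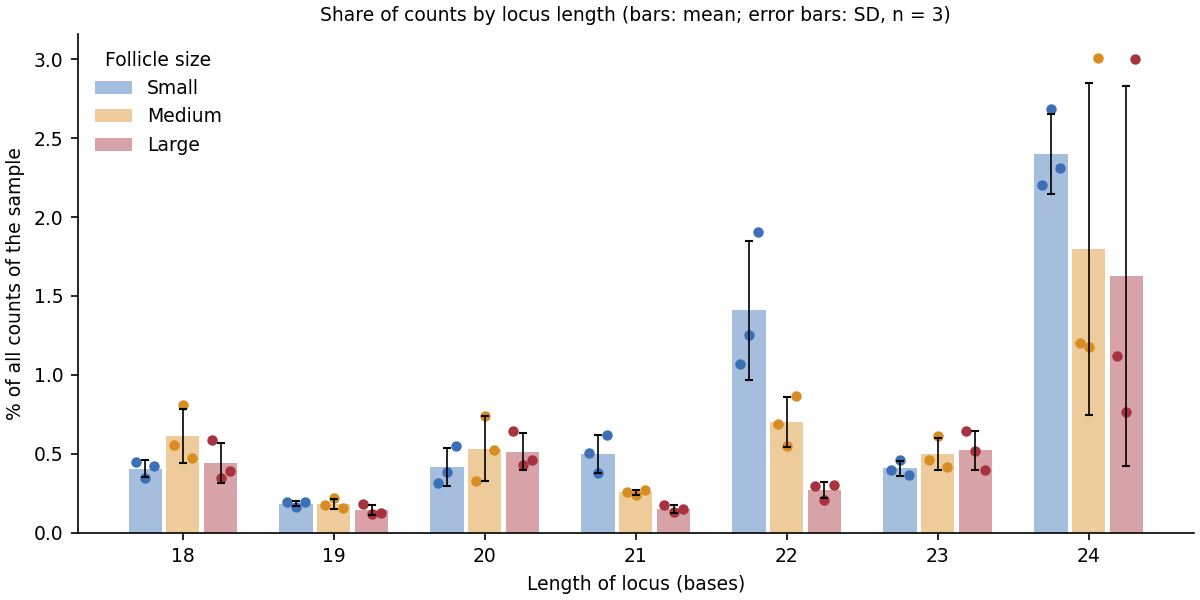
Share of all counts (y axis, %) on unlisted short loci by length of locus (x axis, bases) and follicle size. Bars are means, points the 3 replicates and error bars the SD; at 21 and 22 bases the 3 sizes are separate, and at 24 bases 1 medium and 1 large replicate reach about 3.00%.

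Compared with other sets, the loci moved unlike the known and homologous miRNA. The log2 ratio of their summed count to that of known and homologous miRNA loci was -2.17, -1.31 and -2.08 in small, -0.08, 0.21 and -0.97 in medium and 1.21, 0.81 and -0.22 in large replicates. The ratio rose with size (exact permutation p = 0.00476, adjusted p = 0.00714 over 3 ratios). The known and homologous miRNA loci held between 14.1 and 26.9% of counts in small and between 1.43 and 5.65% in large replicates. Against listed loci of the same 18 to 24 bases, of which there were 256, the result was the same to the digits of the test (exact permutation p = 0.00476, adjusted p = 0.00714). The 2 ratios were nearly equal, with means of -1.85 and -1.86 in small and 0.598 and 0.589 in large follicles. They are therefore not separate results. Against the 17627 unlisted loci of 25 to 30 bases small follicles had a mean log2 ratio of -1.80 ± 0.51, medium of -2.25 ± 0.53 and large of -2.33 ± 0.49 (SD, n = 3), and the trend did not pass the test (exact permutation p = 0.221). Without the 10 highest loci of each set, which were chosen by their counts in these samples, that trend had an exact permutation p of 0.00119. The 455 listed loci of predicted miRNA took 0.929, 0.836 and 0.882% of counts in small and 1.84, 1.62 and 1.38% in medium replicates. In large replicates they took 2.12, 2.13 and 1.68%, and a ratio to them was not tested.

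Each locus was then tested for a difference between sizes with edgeR's quasi-likelihood test over the whole table, at a false discovery rate (FDR) under 0.05 across all 85601 loci tested. Of the unlisted short loci, 4722 passed the filter on low counts and 903 did not, the latter with a median total of 61 counts. In large versus small follicles, 983 were called, 974 lower and 9 higher in large follicles. That is 20.8% of those tested, where 5.87% of all loci tested were called (5.63% lower and 0.231% higher). Among the 514 loci with a mean of at least 100 counts in a size group, 247 were called, all lower, and in a fit of such loci alone 264 were called, where 19.9% of all 11770 such loci were. Without large replicate 10 or large replicate 11 the 247 became 156 and 145 (30.4 and 28.2%), beside 2.92 and 2.62% of all loci called lower. With total counts 186 of the 514 were called higher and 260 lower, beside 59.5 and 5.02% of all loci tested. The median log2 fold change (large versus small) was -1.14, beside 0.09 over all loci tested. The split between higher and lower calls rests on TMM. Scaled to the total count instead, which moved the median of all loci by 1.72, 959 loci (20.3% of those tested) were called higher and 929 (19.7%) lower, where 59.5% of all loci tested were called higher and 5.02% lower. The median of the short loci minus that of all loci was -1.23 with TMM and -1.19 with total counts. Without large replicate 10, large replicate 11, small replicate 1 or small replicate 4 the number called was 625, 519, 650 and 603. In these fits 12.1, 9.89, 12.7 and 11.5% of those tested were called lower, beside 2.92, 2.62, 3.39 and 3.13% of all loci tested.

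In medium versus small follicles, 200 loci were called, 199 lower and 1 higher in medium follicles, or 4.24% of those tested beside 1.46% of all loci tested (1.45% lower and 0.0105% higher). This number depended on single pools. It was 0 without medium replicate 5 or without medium replicate 6, 1236 without medium replicate 8, and 17, 124 and 47 without small replicate 1, 2 and 4. Without medium replicate 8, 23.4% of those tested were called lower, beside 5.77% of all loci. Without small replicate 1, 2 and 4 these shares were 0.332, 2.35 and 0.901%, beside 0.0940, 0.480 and 0.187% of all loci. Without medium replicate 5 or 6 none of all loci tested was called. With total counts, 567 (12.0%) were called higher and 377 (7.98%) lower, where 28.1% of all loci were called higher and 2.72% lower. In large versus medium follicles the quasi-likelihood test called 0 loci (0% of all loci tested), while 1253 (26.5%) had an unadjusted p under 0.05, beside 6.58% of all loci tested. edgeR's exact test called 114 (2.41%) and DESeq2 151 (3.20%), all lower in large follicles, where 0.556 and 0.758% of all loci were called lower. Both comparisons with small follicles share the same small pools.

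TMM-normalized counts of 216 loci, 4.57% of those tested, fell from small to medium to large follicles with no overlap between neighbouring sizes, beside 1.08% of all loci. Only 2 (0.0424%) rose in that way, beside 0.270% of all loci. Calls by length were most frequent at 21 and 22 bases but were not limited to lengths whose share fell. In large versus small follicles 157 of 458 tested loci of 21 bases were called lower (34.5% called) and 215 of 645 of 22 bases (33.3%), beside 153 of 1119 loci of 18 bases, 96 of 465 of 19, 84 of 301 of 20, 150 of 763 of 23 and 119 of 971 of 24 bases. At 20 and 23 bases the mean share was 0.418 and 0.409% in small and 0.513 and 0.522% in large follicles, with no trend that passed the test. Without large replicate 11 the lower calls were 74 (14.4%) at 21 bases and 119 (16.2%) at 22 bases, beside 2.62% of all loci. With total counts 86 (18.8%) and 140 (21.7%) loci of these lengths were called higher, beside 59.5% of all loci. Unlisted loci of 25 to 30 bases had 6.45% called, those over 30 bases 4.04%, and known and homologous miRNA 69.5%.

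The loci of highest count did not all behave alike. The highest was a 24-base locus on the plus strand of chromosome 7, from 53516597 to 53516620. It had 52074, 10260 and 49482 counts in small, 27381, 12240 and 145464 in medium and 7854, 7466 and 261666 in large replicates. Medium replicate 8 and large replicate 12 stood far above the other pools of their size, and the groups overlapped (log2 fold change of large versus small -0.26 ± 1.43 SE, quasi-likelihood FDR = 0.978). The fold change was set by 1 pool, and without large replicate 12 it was -4.09 (FDR = 0.185).

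The next 3 were an 18-base locus on chromosome 13 (80016271 to 80016288, minus strand), a 20-base locus on chromosome 18 (39065633 to 39065652, minus strand) and a 20-base locus on chromosome 4 (9290731 to 9290750, plus strand). The chromosome 13 locus had 17469, 12171 and 13854 counts in small, 17925, 47113 and 24020 in medium and 31984, 19172 and 26654 in large replicates. In all 3 loci medium replicate 6 was the highest sample, with 37319 counts on chromosome 18 and 32713 on chromosome 4. None was called, with log2 fold changes of large versus small of -0.80 ± 0.48, -0.52 ± 0.43 and -0.70 ± 0.46 (SE), and their direction turned with total counts (0.93, 1.19 and 1.02, each called, like 59.5% of all loci, by the quasi-likelihood test, FDR = 0.0135, 0.00467 and 0.0100).

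The other 6 of the 10 highest belonged to 1 group of 10 loci with nearly equal counts. To see how far high counts came from such groups, the 306 loci with a total of at least 1000 were joined where lengths differed by at most 1 base and the 9 counts did not differ from the group's mean by chi-square (p above 0.001). This gave 199 groups, of which 32 had at least 2 loci. These 32 held 139 loci and 38.4% of the summed count of all unlisted short loci. How reads with several matches in the genome were counted is not given in the sources used here, so loci within such a group may share reads and are not separate measurements. The 132 called loci among the 306 fell into 76 groups, where 5.87% of all loci tested and 19.9% of those with a size-group mean of at least 100 counts were called.

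The group with the most counts held 10 loci of 24 bases, 8 of them on chromosome 19 between 43829848 and 43937900 and others on chromosomes 1 and 24. Their totals lay between 68891 and 69743, and together they made up 14.9% of the summed count. The mean per locus was 15018.5, 16242.3 and 10022.9 counts in small, 4645.5, 5213.2 and 10126.3 in medium and 3908.2, 1446.3 and 2775.5 in large replicates. As a share of all counts the 10 loci took 1.02, 1.82 and 0.985% in small, 0.385, 0.446 and 0.952% in medium and 0.401, 0.141 and 0.237% in large replicates. On both scales all large values were below all small ones, and by share medium replicate 8 was the highest of the medium pools and below every small pool. All 10 were called lower in large than in small follicles, with log2 fold changes from -3.95 to -3.92 (quasi-likelihood FDR from 0.00674 to 0.00753), also with total counts and without any 1 of the 9 pools. Of all loci tested, 5.63% were called lower with TMM and 5.02% with total counts.

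A group of 4 loci of 22 bases, including a pair on chromosome 2 between 66268772 and 66269610, fell further. The mean per locus was 9104, 9261.5 and 18915 counts in small, 7672.5, 4912.75 and 4731.75 in medium and 416, 323.75 and 497.75 in large replicates. In this group the large pools stood apart from both other sizes (log2 fold change of large versus small from -6.71 to -6.63, FDR from 0.000553 to 0.000557). A group of 6 loci of 21 or 22 bases, 3 of them within chromosome 7 31760834 to 31762995, also had its lowest counts in the large replicates, with 8438.33, 4249.17 and 5761.67 counts per locus in small, 4327.5, 2110 and 2870.17 in medium and 345.833, 239.333 and 571.667 in large replicates (log2 fold change from -5.68 to -5.54, FDR from 0.000688 to 0.000922). Here medium replicate 5 had more counts than small replicate 2. All loci of both groups were called lower with TMM, beside 5.63% of all loci tested, and with total counts, beside 5.02%.

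A group of 30 loci of 23 bases took another course. Of these, 19 lay on chromosome 14 between 280628 and 2299259. The mean per locus was 480.767, 286.7 and 259.2 counts in small, 841.933, 1217.37 and 477.567 in medium and 1173.27, 984.3 and 788.1 in large replicates. Their summed share of counts was 0.0984, 0.0962 and 0.0764% in small and 0.361, 0.289 and 0.202% in large replicates. With TMM none of the 30 was called (log2 fold change of large versus small from -0.23 to 0.03), and with total counts all 30 were called higher in large follicles, as were 59.5% of all loci tested. Under that scaling their median log2 fold change was 1.67, below the 1.81 of all loci.

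**Figure D3:**
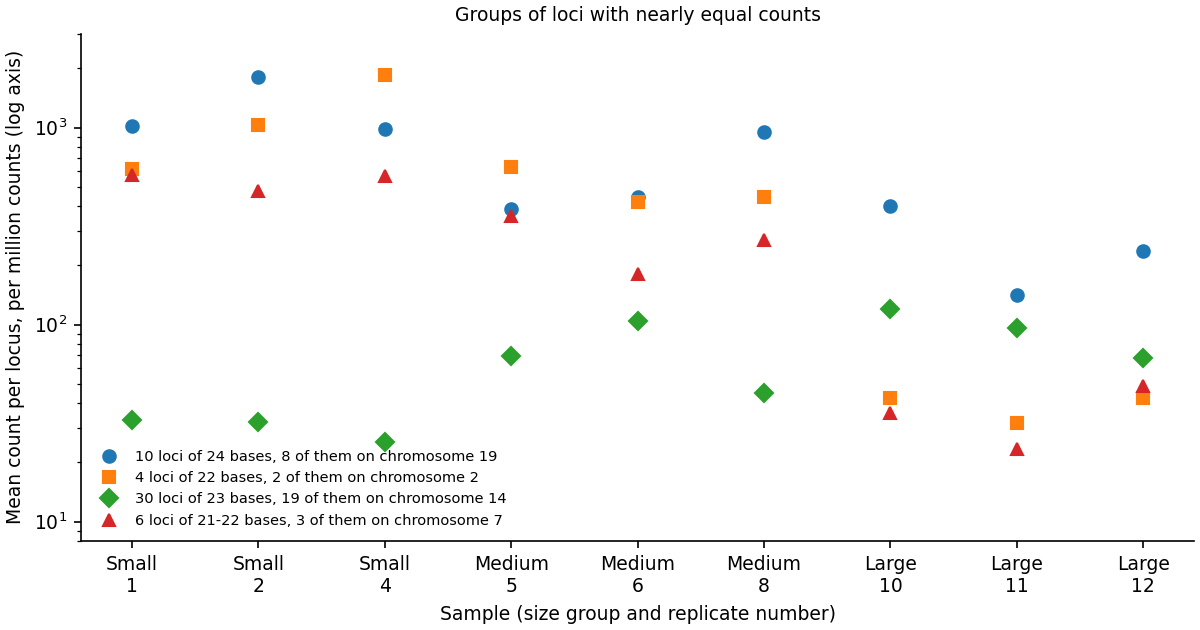
Mean count per locus, scaled to the total count of the sample (log y axis), in the 9 samples for the 4 groups of nearly equal loci with the most counts. The groups of 22 and of 21 to 22 bases are lowest in the large replicates, the 24-base group is lower in every large than in every small replicate and overlaps between large and medium, and the 30 loci of 23 bases are lowest in the small replicates.

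On the chromosomes, the loci were spread over chromosomes 1 to 29 and X, with 4 on the mitochondrial sequence. They made up from 3.83% of the loci of chromosome 24 to 7.45% of those of chromosome 25. Their counts were less even, with 17.8% of the summed count on chromosome 7, 13.7% on chromosome 19 and 9.58% on chromosome 18, where the loci of highest count lie. Of 2678 windows of 1 Mb with any locus, 2034 held an unlisted short locus, 822 of them just 1, and the median was 2.

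The densest window, on chromosome 25 from 32274935 to 32992743, held 92 of them, and 39 form a regular stretch, chosen after their values were seen. These 39 loci of 21 or 22 bases had totals from 456 to 531 counts. All lay on the plus strand between 32387451 and 32435227, with a median spacing of 984 bases. Their median count was 147, 74 and 109 in small, 26, 25 and 65 in medium and 12, 10 and 24 in large replicates. All 39 were called lower in large than in small follicles (log2 fold change from -5.04 to -3.97, quasi-likelihood FDR from 0.00254 to 0.0167), also with total counts, where the median was -2.75. Of all loci tested, 5.63% were called lower with TMM and 5.02% with total counts. Without large replicate 10 there were 23 calls and without large replicate 11 there were 15, beside 2.92 and 2.62% of all loci called lower. Whether these loci share reads was not tested, so they may be fewer measurements than loci.

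The other dense windows were mostly of 18-base loci. On chromosome 3, 65 loci lay between 82714334 and 82910779, on chromosome 8, 53 lay between 56713712 and 56854842, and on chromosome 27, 40 lay between 37446965 and 37649969, each with a median length of 18 bases. A feature of position that the selection did not use ran through the 18- and 19-base loci. Of 1782 of these loci with a downstream neighbour on the same strand, 911 (51.1%) were followed by a locus of 26 to 28 bases after 40 to 44 bases, most often 42 bases (620 loci). The same arrangement was found for 47 of 3835 loci of 20 to 24 bases (1.23%) and for 76 of 95506 other unlisted loci (0.0796%). The limits were set after the distances were seen.

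The 911 paired loci lay on 30 chromosomes and had much the same total, with a median of 201 counts and quartiles of 182 and 214, beside a median of 140 and quartiles of 76 and 221 for the other 872 loci of 18 and 19 bases. Of the downstream neighbours, 228 are in the study's list of predicted miRNA. The paired loci took 0.166, 0.0718 and 0.0711% of counts in small, 0.357, 0.340 and 0.119% in medium and 0.208, 0.127 and 0.0986% in large replicates. They were highest in medium replicates 5 and 6, and the small and large ranges overlapped. The neighbours took 0.469, 0.435 and 0.418% in small, 1.48, 1.08 and 0.747% in medium and 1.41, 2.01 and 1.41% in large replicates.

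Of 902 paired loci tested, 48 (5.32%) were called lower in large than in small follicles, beside 5.63% of all loci tested. The count depended on the tool, with 172 (19.1%) by edgeR's exact test, beside 7.37% of all loci, and 197 (21.8%) by DESeq2, beside 7.50%. The median log2 fold change was -1.34 for the paired loci and 0.11 for their neighbours, and in 901 of 902 pairs the short locus had the lower fold change. With total counts the medians were 0.45 and 1.87, so the direction for the paired loci turned, and 1 paired locus was called higher and none lower, beside 59.5 and 5.02% of all loci. The calls also rested on single pools, with 1 call without large replicate 11, 5 without large replicate 12, 1 without small replicate 1, 8 without small replicate 4, 25 without large replicate 10, 83 without medium replicate 8 and 101 without small replicate 2. Of all loci, 2.62, 5.08, 3.39, 3.13, 2.92, 6.81 and 3.91% were called lower in these fits, in that order. As the totals are so alike, the pairs may share reads and cannot be counted as 902 separate measurements.

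**Figure D4:**
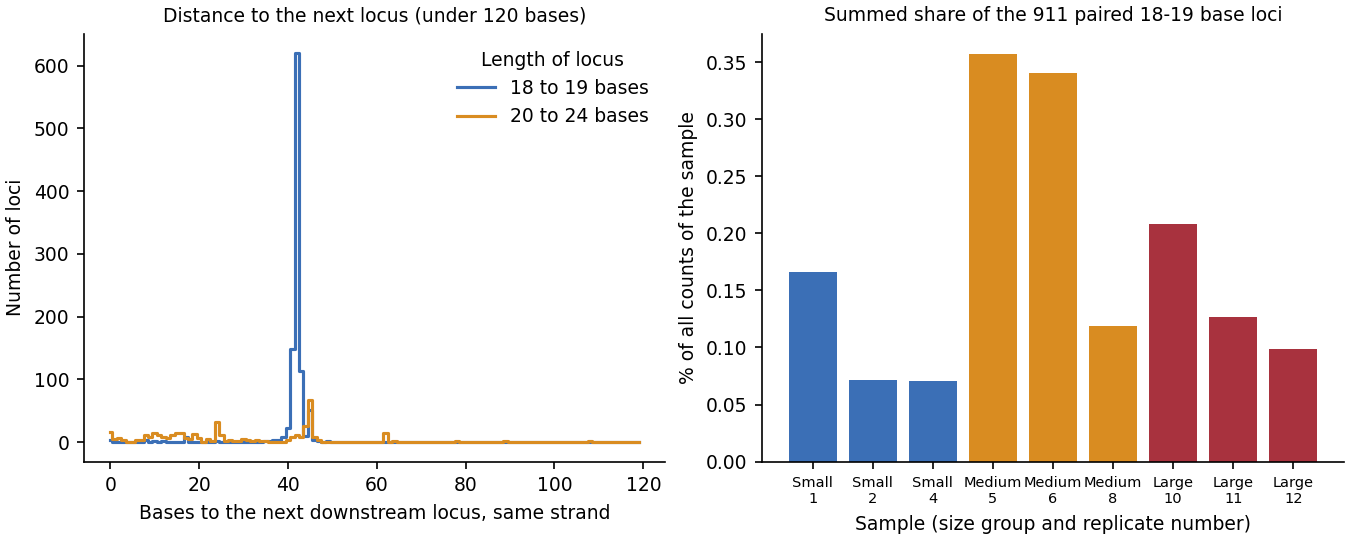
Left, number of unlisted short loci (y axis) by distance in bases to the next downstream locus on the same strand (x axis), for loci of 18 to 19 and 20 to 24 bases, with a peak at 42 bases for the former. Right, summed share of counts (y axis, %) of the 911 paired loci in each sample, highest in medium replicates 5 (0.357%) and 6 (0.340%).

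Closeness to known miRNA set a small class apart. Within 100 bases of a known or homologous miRNA locus lay 46 unlisted short loci (0.818%), each beside a different miRNA locus, against 18 of the 95560 other unlisted loci (0.0188%). All 46 were on the strand of the miRNA. The number of bases between locus and miRNA was 10 to 81 with a median of 16. The locus was downstream of the miRNA in 28 cases and upstream in 18. Of the 46 loci, 43 were 21 to 23 bases long. Within 100 bases of a predicted miRNA locus lay 233 of the 5625 unlisted short loci and 302 of the 95560 other unlisted loci. Of the 233, 228 were paired 18- and 19-base loci of the arrangement described above, which may share reads.

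The loci beside known miRNA were scarce next to their neighbours. Their totals were 6 to 791 counts with a median of 172, and 45 of the 46 stayed under a mean of 100 counts in each size group. They made up a median of 2.48% of the count of the pair. Summed over the 46 loci, there were 3119, 1043 and 2581 counts in small, 562, 507 and 1400 in medium and 201, 222 and 978 in large replicates. The neighbouring miRNA summed to 501791, 200475 and 383765 counts in small, 74274, 70591 and 166426 in medium and 26456, 24862 and 88415 in large replicates. Both sets were lower in every large than in every small replicate, and both had their highest medium value in replicate 8 and their highest large value in replicate 12.

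**Figure D5:**
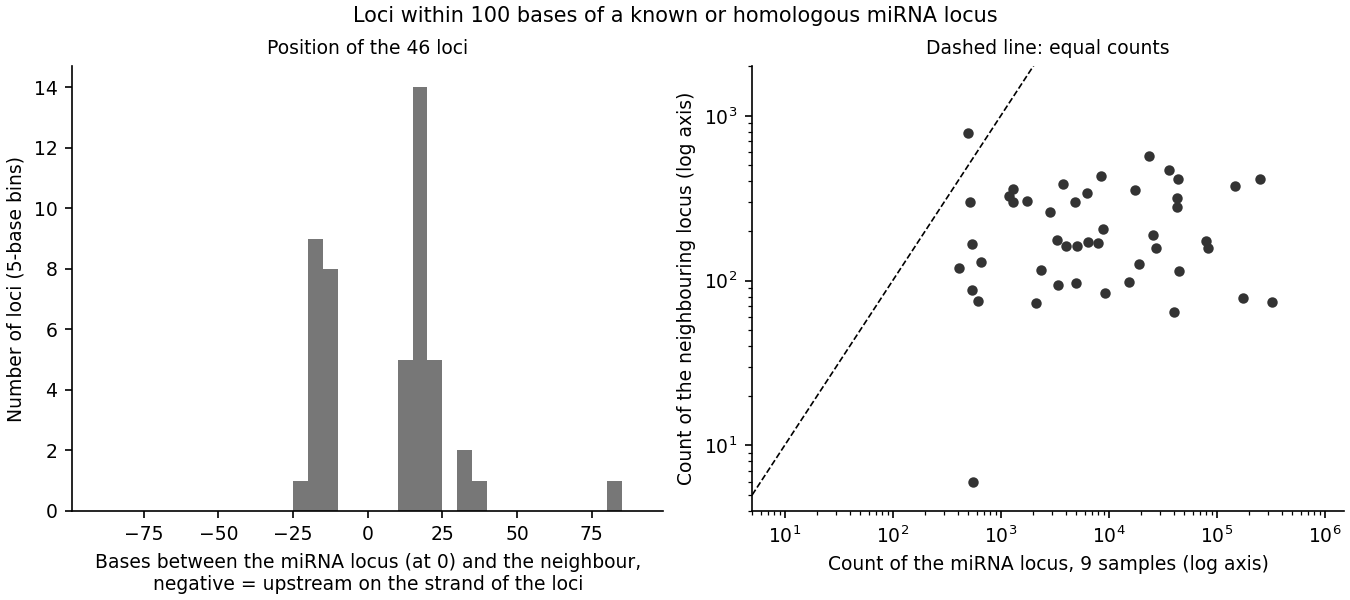
Left, number of unlisted short loci (y axis) by distance in bases from the known or homologous miRNA locus at 0 (x axis, negative upstream on the strand of the loci), in bins of 5 bases; most lie 10 to 25 bases away on either side. Right, count of the neighbouring locus over the 9 samples (log y axis) against that of the miRNA locus (log x axis), with 1 locus above the dashed line of equal totals.

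The 1 locus with a higher total than its miRNA was also the one of highest count, a 22-base locus on the plus strand of chromosome 2 (5205393 to 5205414), 17 bases upstream of miR-2285aa. It had 251, 138 and 141 counts in small, 59, 94 and 80 in medium and 9, 5 and 14 in large replicates. The miRNA had 154, 76 and 140 counts in small, 19, 15 and 33 in medium and 16, 24 and 22 in large replicates, so that the locus was above it in the small and medium pools, by 1 count in small replicate 4, and below it in all large pools. The groups of the locus do not overlap (log2 fold change of large versus small -5.80 ± 0.65 SE, quasi-likelihood FDR = 0.000687). A 22-base locus lay 16 bases upstream of miR-210, a miRNA induced by low oxygen, on chromosome 29 (51025449 to 51025470). It had 94, 28 and 81 counts in small, 35, 46 and 111 in medium and 37, 30 and 106 in large replicates. Its groups overlapped and it was not called (log2 fold change -1.85 ± 0.85 SE, FDR = 0.301), while that of miR-210 was -6.11 (FDR = 0.00884); the difference between locus and miRNA was not tested.

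Beside members of the let-7 family, known regulators of developmental timing, lay 22-base, 23-base and 21-base loci downstream of let-7f (chromosome 8, 86885287 to 86885308), let-7e (chromosome 18, 58015088 to 58015110) and let-7i (chromosome 5, 51209083 to 51209103). The locus by let-7i had 138, 28 and 122 counts in small, 7, 16 and 50 in medium and 0, 1 and 12 in large replicates, and was called lower in large follicles (log2 fold change -6.05 ± 1.38 SE, quasi-likelihood FDR = 0.0216). This call was lost without large replicate 10 or 11 or small replicate 1 or 4, with FDR from 0.0595 to 0.113. Those by let-7f and let-7e were not called by the quasi-likelihood test with all pools (log2 fold change -3.53 and -2.52, FDR = 0.132 and 0.240), with 57 and 50 counts in large replicate 12 beside 3 and 32 in replicate 10 and 8 and 21 in replicate 11. The locus by let-7f was called lower by DESeq2 (adjusted p = 0.0198), by edgeR's exact test (FDR = 0.0484) and with total counts (FDR = 0.0486), and also without large replicate 12 or medium replicate 8 (FDR = 0.0259 and 0.0322). That by let-7e was called without medium replicate 8 (FDR = 0.0259). A further pair of 22-base loci downstream of let-7g (chromosome 22, 49189401 to 49189422) and let-7c (chromosome 1, 19930466 to 19930487) fell outside the rule for named loci and were picked with their values known. The locus by let-7g had 63, 15 and 50 counts in small, 5, 5 and 24 in medium and 0, 0 and 11 in large replicates and was called lower in large follicles (log2 fold change -5.10 ± 1.26 SE, quasi-likelihood FDR = 0.0337). This call too was lost without large replicate 10 or 11 or small replicate 1 or 4 (FDR from 0.102 to 0.139). The locus by let-7c had 13, 9 and 25 counts in small, 2, 2 and 17 in medium and 0, 4 and 6 in large replicates and was not called by the quasi-likelihood test (log2 fold change -3.92 ± 1.16 SE, FDR = 0.0781), while it was by DESeq2 (adjusted p = 0.0117), by the exact test (FDR = 0.0271) and without medium replicate 8 (FDR = 0.00466).

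Downstream of miR-374b on chromosome X (82023966 to 82023983) an 18-base locus had 167, 67 and 57 counts in small, 34, 16 and 34 in medium and 3, 0 and 5 in large replicates (log2 fold change -6.63 ± 0.95 SE, quasi-likelihood FDR = 0.00181). Downstream of miR-30c on chromosome 3 (106059377 to 106059398) and of miR-425-5p on chromosome 22 (51544005 to 51544027) the loci were also called lower in large follicles (log2 fold change -3.71 and -4.49, FDR = 0.0234 and 0.0267). Both calls were lost without large replicate 10 or 11 or small replicate 1 or 4, with quasi-likelihood FDR from 0.0710 to 0.123 and from 0.0662 to 0.131.

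Of the 46, 43 were tested, and 24 were called, all lower in large than in small follicles, beside 5.63% of all loci tested called lower. Fold changes of all 43 were below 0, with a median of -4.49, beside -5.11 for their miRNA neighbours, of which 29 were called lower. The locus had the lower fold change of the pair in 18 of 43 pairs. As the filter keeps a scarce locus only where some group is high, these counts describe the loci and support no further reading. With total counts the median was -2.76 and 27 were called lower, beside 5.02% of all loci. Without large replicate 10, large replicate 11, small replicate 1 or small replicate 4 there were 12, 10, 11 and 11 calls. Of all loci, 2.92, 2.62, 3.39 and 3.13% were called lower in these 4 fits.

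The lowest fitted fold change of large versus small follicles among called loci without overlap was that of a 23-base locus on the plus strand of chromosome 15 (22134738 to 22134760), 13 bases upstream of miR-34b-3p, a member of the p53-induced miR-34 family. It had 187, 23 and 25 counts in small, 69, 38 and 19 in medium and 0, 0 and 0 in large replicates. With depth scaled by TMM and 3 counts over the group as the floor, this was a difference of at least 249-fold. All bounds given here rest on TMM and would be smaller with total counts, as TMM factors were lower in small than in large pools. The bound of 249-fold also rested on small replicate 1 and was 85.9-fold without that pool. The next falls were also of loci at 0 in all large replicates, none of them within 100 bases of a known miRNA. A 23-base locus on chromosome 21 (43809629 to 43809651) had 78, 27 and 38 counts in small and 9, 9 and 3 in medium replicates, and its fall was at least 151-fold (quasi-likelihood FDR = 0.000475), or 116-fold without small replicate 1. Loci on chromosome 18 (43885037 to 43885058), 9 (71975139 to 71975162) and 15 (17999933 to 17999955) had falls of at least 132-, 134- and 116-fold. The first of these bounds was 86.5-fold without small replicate 4, and the call on chromosome 9 was lost without large replicate 11 (quasi-likelihood FDR = 0.0572).

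The largest falls in medium versus small follicles were of scarcer loci. A 24-base locus on chromosome 21 (53199732 to 53199755) had 28, 10 and 22 counts in small, 0 in all medium and 0, 0 and 4 in large replicates. A 22-base locus on chromosome 26 (33108923 to 33108944) had 19, 22 and 14 counts in small, 1, 0 and 0 in medium and 0, 2 and 0 in large replicates (log2 fold change of medium versus small -6.78 ± 0.82 SE, quasi-likelihood FDR = 0.00982). The others of this kind were on chromosome 22 (49142082 to 49142105), 2 (107963037 to 107963058) and 8 (32171768 to 32171791), with totals of 76, 108 and 52 counts. The calls of all 5 in medium versus small follicles were lost without medium replicate 5 (quasi-likelihood FDR from 0.0917 to 0.142) and without medium replicate 6 (FDR from 0.0620 to 0.117). Those on chromosomes 21, 22 and 2 were also lost without small replicate 1 or 4 (quasi-likelihood FDR from 0.0604 to 0.0829). That on chromosome 8 was also lost without small replicate 1 (FDR = 0.0507).

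With TMM, rises were few and of low loci. In large versus small follicles 9 loci were called higher (0.191% of those tested, beside 0.231% of all loci). With total counts 959 (20.3%) were called higher, beside 59.5% of all loci. The largest rise with TMM was of a 24-base locus on the minus strand of chromosome 18 (12798009 to 12798032). This locus was the one called higher in both comparisons with small follicles. It had 2, 4 and 1 counts in small, 46, 71 and 12 in medium and 51, 77 and 81 in large replicates, and all medium and large values were above all small ones (log2 fold change of large versus small 3.23 ± 0.52 SE, quasi-likelihood FDR = 0.00353; medium versus small 2.53 ± 0.53 SE, FDR = 0.0409). The call in medium versus small follicles was lost in 8 of 16 alternatives (FDR from 0.0572 to 0.202). Loci on chromosome 6 (75522897 to 75522919), 3 (99421658 to 99421680), X (61029507 to 61029530) and 7 (64755458 to 64755481) rose too, with log2 fold changes of large versus small from 2.22 to 2.89, and none of these 4 had more than 3 counts in a small replicate. Each of the 4 lost its call without some single pool, among them large replicates 10 and 11 and small replicate 4, with quasi-likelihood FDR up to 0.179, 0.148, 0.0800 and 0.107.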

How the data were processed

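Small RNA libraries of 9 EV pools (3 per follicle size) were sequenced. The authors removed adapters, mapped reads with BWA 0.7.5a to UMD3.1, built loci from the merged alignments of all samples, and counted the reads of each sample over a locus's effective region, whose bases all reach 20% of its highest depth. The deposited counts are raw. The lowest mean read count per base among the deposited loci was 45, and how multi-mapped reads were assigned is not given in the sources used here.

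Groups are the follicle sizes of the labels. Shares and log2 ratios of summed counts were tested by two-sided exact permutation tests over the 9 samples. Loci were tested in R 4.3.3 with edgeR 4.0.16 (TMM, filterByExpr, 1 quasi-likelihood fit of the 3 sizes, Benjamini-Hochberg over all loci tested, common dispersion 0.188). The fit was also run on simulated data, whose outcome is not given here and on which no result rests. DESeq2 1.42.0, other scalings and filters and leaving out each sample were alternatives. Other steps used Python 3.11.15, numpy 2.4.6, scipy 1.17.1, pandas 2.3.3 and matplotlib 3.10.9. The replicates are independent pools, and p-values measure the spread between pools.

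The loci and lists were chosen with earlier results of these data known. Loci are named as the 10 of highest count, the 5 largest rises and falls per comparison among called loci without overlap, and the 8 of highest count within 100 bases of a known or homologous miRNA. A locus at the place that the study matched to miR-9-5p also falls under the rule and is given among the other observations. Groups of nearly equal counts, the chromosome 25 stretch and the paired loci were described after the data were seen. Sequences, genomic annotation and reads were not analysed here.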

Additional observations from a re-analysis of the deposited data

How the results depend on the processing

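The fall of the summed share is sensitive to its denominator and to the 10 highest loci. Its two-sided exact permutation p was 0.569 with a rise in place of a fall as a share of loci of 18 to 30 bases, and 0.0607 when only loci with a mean of 100 or more counts in a size group were used. The log2 ratio to loci of 25 to 30 bases had an exact permutation p of 0.00119 without the 10 highest loci of each set. Loci left out as the highest were chosen by their counts in the same samples, so such p-values only describe the values. Leaving out 1 sample gave an exact permutation p of 0.0125 to 0.0946 for the share (under 0.05 in 4 of 9), 0.125 to 0.498 for the ratio to 25 to 30 base loci, 0.00179 to 0.0125 for that to known and homologous miRNA and 0.00357 to 0.0125 for that to listed loci of 18 to 24 bases. Leaving out 1 sample gave 519 to 1454 calls for large versus small, 0 to 1236 for medium versus small and 0 to 1 for large versus medium. Over all loci the share called lower also moved in these fits, from 2.62 to 6.81%, from 0 to 5.77% and from 0 to 0.00102%.

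The calls were 264 (large versus small), 112 (medium versus small) and 20 (large versus medium) among loci with a size-group mean of 100 or more (51.2, 21.8 and 3.89% lower, beside 17.4, 7.80 and 0.357% of all loci in that fit), and 1888, 944 and 34 with total counts. In the latter fit 19.7, 7.98 and 0.720% were called lower, beside 5.02, 2.72 and 0.161% of all loci. Called higher were 20.3, 12.0 and 0%, beside 59.5, 28.1 and 0% of all loci. For medium versus small they were 516 with DESeq2, 467 with edgeR's exact test, 129 in a fit of only the 2 groups and 371 at an FDR under 0.1. With DESeq2, the exact test and the fit of 2 groups, 10.9, 9.78 and 2.73% of those tested were called lower. Of all loci, 3.49, 3.19 and 0.834% were. For large versus medium they were 151 with DESeq2 and 114 with the exact test. The cause of these shifts was not tested, except that fewer loci enter at a mean of 100 or more. The number of loci near a known miRNA was 1 within 10 bases, 60 within 1000 bases and 82 within 10000 bases (1, 60 and 76 on the same strand).

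Of 698 alternative values for 43 fold changes of named loci, 613 kept their direction and side of the threshold, 70 lost their call and 8 gained one. The other 7 changed direction, all of loci not called with TMM. They were, with total counts, 1.32 at 7 53516597, 0.93 at 13 80016271, 1.19 at 18 39065633 and 1.02 at 4 9290731, and at 7 53516597 also 0.29, 0.30 and 0.33 without large replicate 10, large replicate 11 and small replicate 4 (range over the samples left out -4.09 to 0.33). No paired analysis was possible because the labels name no collection per pool and the groups share no replicate number. The tests therefore have no block, although pools of different sizes came from shared collections per the study's methods. Depth limits the 903 loci that did not pass the filter, and loci of equal count may be 1 measurement.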

Other observations

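The study matched a 23-base locus on the plus strand of chromosome 3, which is outside its lists, to miR-9-5p, a miRNA known from neural tissue. It had 22, 12 and 10 counts in small, 2, 6 and 1 in medium and 0, 0 and 1 in large replicates, so that the small pools were above all others, while medium replicate 8 and large replicate 12 had 1 count each. The log2 fold change was -6.50 ± 0.74 SE for large and -3.77 ± 0.57 SE for medium, each against small follicles (quasi-likelihood FDR = 0.000716 and 0.0127). The call for medium against small was lost without medium replicate 5 or 6 or small replicate 1 or 4 (quasi-likelihood FDR from 0.0510 to 0.118).

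Further groups of nearly equal counts lay close together on a chromosome, and their calls stand beside 5.63% of all loci tested called lower in large than in small follicles. A group of 10 loci of 21 or 22 bases, 6 of them on chromosome 23 between 30709290 and 31455942, had a mean per locus of 1432.8, 467.1 and 2955.4 counts in small, 209.5, 114.1 and 303.1 in medium and 43.6, 47.1 and 131.3 in large replicates. All 10 were called lower in large than in small follicles (log2 fold change from -6.31 to -6.14, quasi-likelihood FDR from 0.0037 to 0.00511). A group of 7 loci of 20 bases, 6 of them on chromosome 18 between 58223528 and 58236668, had its highest value in small replicate 4 (3642.29 counts per locus, beside 806.429 and 692.143 in the other small replicates), and all 7 were called lower in large follicles (log2 fold change from -5.04 to -4.80). A group of 8 loci of 18 bases lay wholly on chromosome 21 between 2075527 and 3699810, and 6 of the 8 were called lower (log2 fold change of the 8 from -5.88 to -5.17, quasi-likelihood FDR from 0.0368 to 0.0524). Its mean per locus was 289.125, 78.75 and 480.375 counts in small, 62.625, 26.625 and 299.25 in medium and 8.25, 5.25 and 46.5 in large replicates.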
